A study of Mus musculus with 6 samples.

Results

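The enzymes of glycolysis, the TCA cycle and the pentose phosphate pathway were followed in mouse embryonic stem cells on their way to paraxial mesoderm. The members were taken from a fixed list of 44 genes, namely 19 of glycolysis and lactate handling, 19 of pyruvate dehydrogenase and the TCA cycle and 6 of the pentose phosphate pathway, and each was represented by the probe sets that the annotation of the array assigns to it alone. Of the 44, 41 had such a probe set, out of 18194 genes named on the array, and 40 could be tested. Under its symbol alone, Gapdh had only control probe sets, which were kept apart from the test, and Eno1, Gpi1 and G6pdx were not analysed here. The cells were the E14 line of 129P2/OlaHsd background carrying the reporter Msgn1RepV, in which Venus marks cells that express Msgn1, a transcription factor of the presomitic mesoderm. All arrays came from cells differentiated on gelatin in DMEM with 15% fetal bovine serum, 0.5% DMSO, 10 ng/mL R-spondin3 (which potentiates Wnt signals) and 200 ng/mL Noggin (which blocks BMP ligands), and only Venus-positive cells were taken. The groups were thus 3 arrays of cells sorted at day 3 and 3 arrays of cells sorted at day 4, with no other difference named in the labels, and no unsorted or undifferentiated cells were available for comparison. RNA was extracted with Trizol or a column kit, and the labels do not assign these to samples. They call the replicates biological but do not say what separates them or whether the reporter line is 1 clone, and p-values measure only the spread between these samples.

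Glycolysis splits glucose into pyruvate, with phosphofructokinase as its committed step. Pyruvate is either reduced to lactate and exported, or enters mitochondria, where pyruvate dehydrogenase and the TCA cycle oxidise it. The pentose phosphate pathway branches off after glucose is phosphorylated and supplies NADPH and ribose for nucleotides. Stem cells and the early presomitic mesoderm are known for a high rate of glycolysis even where oxygen is present, and most enzymes of these pathways exist as several isoenzymes encoded by separate genes.

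Values are array signals, the linear intensities of a probe set. They allow a gene to be compared between arrays, but not the level of one gene with that of another. A change is the log2 signal of day 4 minus that of day 3, given ± SE, and a gene was called changed where the limma test over all 12285 genes gave an adjusted p under 0.05. Msgn1, the gene whose activity the reporter marks, had signals of 57.2 to 83.4 at day 3 and 25.2 to 38.3 at day 4. All 10 markers of presomitic and paraxial mesoderm lay above the filter on low signal, which uses the mean log2 signal over all 6 arrays. Of these, Meox1 had signals of only 4.20 to 13.9 at day 3, with 40.5 to 72.3 at day 4. Day 4 replicate 1 stood apart in the control probe sets, where the 3′ signal of Gapdh was 14 times the 5′ signal (2.43 to 3.19 times in the remaining 5 arrays). For Actb this ratio was 6.71, with 2.77 to 3.84 elsewhere. Among all genes tested, this array held the lowest of the 6 signals in 23.1%, and among genes with a mean signal over 1000 in 31.2%. It did so in 7 of 16 glycolysis members, 10 of 19 TCA cycle members and 0 of 5 pentose phosphate members, so the counts of each pathway and the change of each called member are also given without it. In bulk samples such as these, fewer cells of a type and less RNA per cell cannot be told apart.

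Over all 40 tested members, 10 were lower and 5 higher at day 4, while 25 passed in neither direction. The background over all genes tested was 10.7% lower and 11.5% higher. The members had a median signal of 1720, against 157 over all genes tested. Of 1672 genes with a mean signal over 1000, 15.2% were lower and 13% higher. Without day 4 replicate 1 the members' counts were 13 lower (32.5%) and 7 higher (17.5%), against a background of 14.5% lower and 14.2% higher. Genes with a mean signal over 1000 then gave 20.7% lower and 19.3% higher. All 15 calls of members were made again in the same direction. The changes were small, from 0.25 to 1.02 in absolute log2 size. The calls leaned on the variance model, as only 4 of the 15 (Pfkl, Pfkp, Aldoc and Idh1) passed when the variance was not allowed to follow the mean signal.

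**Figure D1:**
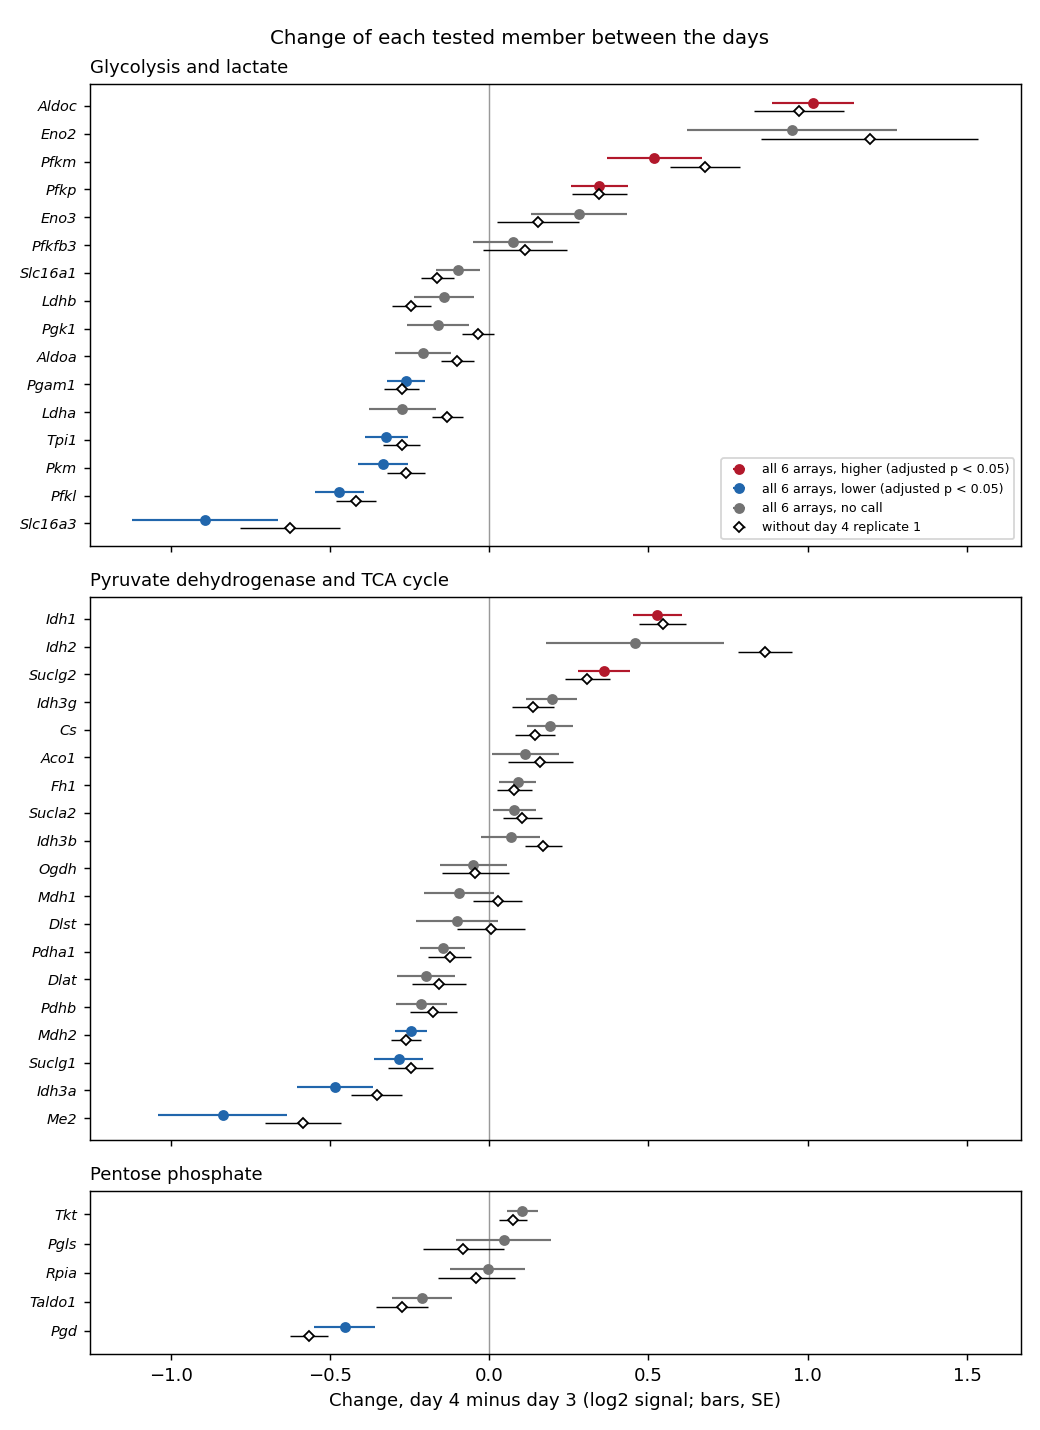
Change of each of the 40 tested members from day 3 to day 4 (x axis, log2 signal; bars, SE), by pathway, with all 6 arrays (filled circles, coloured where the adjusted p was under 0.05) and without day 4 replicate 1 (open diamonds). Most changes lie within 0.5 of zero; Aldoc is farthest to the right among the called genes at 1.02, and Slc16a3 farthest to the left at -0.89.

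Glycolysis members were divided between the days. Of 16 tested, 5 were lower at day 4 (Pfkl, Tpi1, Pgam1, Pkm and Slc16a3) and 3 were higher (Pfkm, Pfkp and Aldoc). These are shares of 31.25% lower and 18.75% higher. All genes tested gave 10.7% and 11.5%, and genes with a mean signal over 1000 gave 15.2% and 13%. The median change of the glycolysis members was -0.15, against -0.012 over all genes tested. Without day 4 replicate 1 the counts were 7 lower (43.75%) and 4 higher (25%), with a median of -0.12. The backgrounds were then 14.5% lower and 14.2% higher over all genes tested, and 20.7% and 19.3% over genes with a mean signal over 1000. The count of lower members was 3 without any 1 of the day 3 replicates and 1 without the variance trend, and that of higher members was 1 on omission of replicate 2 or replicate 3 of either day. The summed signal of 8 markers of pluripotent and epiblast cells moved in the same interval, from 8839 to 9191 at day 3 to 6030 to 6257 at day 4, with 8 of 8 above the filter and 6 of 8 lower. The 6 cardiac markers summed to 146 to 173 at day 3 and 271 to 316 at day 4 (6 of 6 above the filter, 2 higher), and the 6 blood and endothelial markers to 255 to 309 and 495 to 687 (4 of 6 above, with Kdr higher and Tal1 and Pecam1 under the filter). The 5 endoderm markers summed to 598 to 647 at day 3 and 372 to 413 at day 4 (5 of 5 above the filter, with Sox17, Foxa2 and Gata6 lower). The 10 markers of presomitic and paraxial mesoderm summed to 3039 to 3294 and 4789 to 5027, with 3 higher (Rspo3, Meox1 and Pax3) and Msgn1 lower. Sums of linear signals are set mostly by the brightest genes of a list. Tdgf1 of the pluripotent list had 6224 to 6346 at day 3 and 5244 to 5370 at day 4. Rspo3 had 1248 to 1320 and 2403 to 2882, and Kdr 203 to 239 and 433 to 603. The part of these marker shifts in the changes of the members was not tested.

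The 3 genes of phosphofructokinase, which adds the second phosphate to the sugar, went in different directions. Pfkl, the liver type, had signals of 1706, 1719 and 1794 at day 3 and 1167, 1272 and 1332 at day 4. All day 4 arrays lay below all day 3 arrays, and the signal fell by 0.47 ± 0.08, or 1.39-fold (adjusted p = 0.0025; -0.42 and adjusted p = 0.000747 without day 4 replicate 1). Pfkm, the muscle type, had signals of 160, 182 and 163 at day 3 and 193, 275 and 263 at day 4. The days did not overlap, though day 4 replicate 1 was close to the highest day 3 array, and the signal rose by 0.52 ± 0.15 (adjusted p = 0.0345; 0.68 and adjusted p = 0.00119 without day 4 replicate 1). Pfkp, the platelet type, was at 396, 401 and 369 at day 3 and 494, 505 and 482 at day 4, with no overlap, and rose by 0.35 ± 0.09 (adjusted p = 0.0221), with the change still 0.35 without day 4 replicate 1 (adjusted p = 0.0124).

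Within each array, log2 Pfkp minus log2 Pfkl was negative, at -2.28 to -2.10 at day 3 and -1.47 to -1.24 at day 4. It thus rose by 0.82 toward zero. Pfkm minus Pfkl went from -3.46 to -3.24 at day 3 to -2.60 to -2.21 at day 4, a rise of 0.99. These differences were computed because the calls were opposite, so they are given with no test. They show unequal change, not which isoenzyme is the more abundant. The rise of Pfkm is the least secure, with the call lost without any array other than day 4 replicate 1: adjusted p = 0.107, 0.0636 and 0.115 without day 3 replicates 1, 2 and 3, and 0.117 and 0.104 without day 4 replicates 2 and 3. Pfkp lost its call on omission of day 3 replicate 2 (adjusted p = 0.0587), day 3 replicate 3 (0.103), day 4 replicate 2 (0.0814) or day 4 replicate 3 (0.0526). A further probe set of Pfkp rose more steeply, from 131 ± 23.7 to 306 ± 25.9 (mean ± SD, n = 3; a change of 1.23, adjusted p = 0.000951 with every probe set tested alone), and a dim one with means of 18.7 and 14.5 did not pass. Averaged over these probe sets, Pfkp had a change of 0.30 (adjusted p = 0.348). For Pfkl, a second probe set was at 792 ± 46.3 and 550 ± 137 (change -0.56, adjusted p = 0.0548), and a further dim one at 59.2 ± 4.64 and 82.9 ± 4.45 went the other way (change 0.49, adjusted p = 0.0507). The fall of Pfkl therefore holds for its brightest probe set and was lost with the mean over its probe sets (-0.18, adjusted p = 0.292). Pfkfb3, which makes the allosteric activator of phosphofructokinase, had overlapping signals of 109 to 129 at day 3 and 117 to 131 at day 4, a change of 0.07 with a 95% confidence interval of -0.21 to 0.36.

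Promoters are shown for Pfkl and Pfkp, which changed in opposite directions and have 1 annotated start each (Pfkm has 4, of which 3 hold the letters below and 1 does not), and for the glycolysis members with the steepest fall and rise among the called genes. Each runs from 250 bases before to 50 after an annotated start, from RefSeq on GRCm38.p6, read 5′ to 3′ along the gene, with the letters ACGTG and GCGTG, the core of hypoxia response elements, in capitals on either strand (CACGT and CACGC on the other). They lie at chr10:78009758-78010057 on the minus strand (Pfkl), chr13:6648722-6649021 on the minus strand (Pfkp), chr11:120948817-120949116 on the plus strand (Slc16a3) and chr11:78322823-78323122 on the plus strand (Aldoc, the first of 2 annotated starts).
Pfkl: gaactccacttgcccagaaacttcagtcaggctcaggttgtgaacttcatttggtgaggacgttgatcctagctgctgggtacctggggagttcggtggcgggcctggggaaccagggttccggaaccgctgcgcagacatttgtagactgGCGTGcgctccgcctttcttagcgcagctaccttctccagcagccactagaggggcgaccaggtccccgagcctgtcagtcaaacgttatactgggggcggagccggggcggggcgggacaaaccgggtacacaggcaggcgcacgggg
Pfkp: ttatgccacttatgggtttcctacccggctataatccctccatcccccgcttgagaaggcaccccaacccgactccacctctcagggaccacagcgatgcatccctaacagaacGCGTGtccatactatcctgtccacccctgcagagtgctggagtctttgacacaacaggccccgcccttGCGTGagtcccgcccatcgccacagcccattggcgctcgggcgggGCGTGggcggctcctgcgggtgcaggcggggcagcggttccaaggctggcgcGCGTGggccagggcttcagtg
Slc16a3: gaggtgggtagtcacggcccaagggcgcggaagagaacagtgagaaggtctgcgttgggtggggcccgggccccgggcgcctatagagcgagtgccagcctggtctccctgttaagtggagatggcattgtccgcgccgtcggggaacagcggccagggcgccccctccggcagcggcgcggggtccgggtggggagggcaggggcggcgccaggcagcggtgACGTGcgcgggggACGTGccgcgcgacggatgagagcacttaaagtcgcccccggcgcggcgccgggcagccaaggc
Aldoc: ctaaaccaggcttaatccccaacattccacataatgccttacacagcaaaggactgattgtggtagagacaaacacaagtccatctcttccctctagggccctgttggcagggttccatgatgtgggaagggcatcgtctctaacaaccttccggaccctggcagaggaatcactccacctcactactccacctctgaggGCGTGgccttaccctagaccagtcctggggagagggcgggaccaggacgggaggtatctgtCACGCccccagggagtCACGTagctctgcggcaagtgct

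The core letters were in the window of the gene that fell and in that of the gene that rose in both pairs. Over the members, 46 of 60 annotated windows (42 genes had one) held ACGTG or GCGTG on either strand, 76.7%, against 49.3% of the 21262 windows of protein-coding genes and 43.8% of all 32851 windows. The share was 24 of 30 windows for glycolysis, 16 of 23 for the TCA cycle and 6 of 7 for the pentose phosphate pathway. Windows of a gene with several starts can overlap, as for Ogdh, which gave 6 of the 16. Counted by gene, 16 of 19 glycolysis genes (84.2%), 10 of 17 TCA cycle genes (58.8%) and 6 of 6 pentose phosphate genes held the letters in at least 1 window, against 52.3% of protein-coding genes. By direction of change, 7 of 10 windows of lower members and 8 of 10 windows of higher members held these letters. CACGTG, the E-box bound by Myc and related factors, which also holds ACGTG, was in 7 of 60 member windows (11.7%), 3 of them of Ogdh, and in 7.84% of protein-coding windows. It occurred in 0 of 10 windows of lower members and 1 of 10 of higher members. The windows were not matched for base composition, and a match describes letters only.

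The aldolases, which cleave fructose 1,6-bisphosphate, also differed. Aldoc, the brain type, was at 65.5, 72.8 and 72.0 at day 3 and at 151, 141 and 133 at day 4. The days were far apart, and the signal rose 2.02-fold (1.02 ± 0.13, adjusted p = 0.000715), as it did without day 4 replicate 1 (0.97). Aldoa, the form of most tissues, gave 5492, 5173 and 5325 at day 3 and 3977, 5131 and 4812 at day 4. The day 4 arrays were the lower ones, but only day 4 replicate 1 lay well below, and the change of -0.21 ± 0.09 did not pass (adjusted p = 0.123), or -0.10 without that array. All 4 other probe sets of Aldoa also had negative changes that did not pass. With the mean over its probe sets, which adds a probe set near the bottom of the signal range, Aldoc had a change of 1.33 that did not pass (adjusted p = 0.0815). Snap25, Stmn2 and Nefl, markers of neurons, in which Aldoc and Eno2 are also known to be expressed, had a summed signal of 742 to 912 at day 3 and 255 to 458 at day 4. Of these markers 2 of 3 were above the filter and Snap25 lay under it. Nefl was lower, and Stmn2 did not pass (adjusted p = 0.0771). A part of neurons in the changes of Aldoc or Eno2 was not tested.

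Tpi1, which interconverts the triose phosphates, had 4001, 3660 and 4026 at day 3 and 2914, 3218 and 3215 at day 4. The groups did not overlap, and the fall was 0.32 ± 0.07 (adjusted p = 0.00889; -0.27 and 0.00516 without day 4 replicate 1). All 3 of its probe sets were called lower when tested alone. The call was lost without day 3 replicate 3 (adjusted p = 0.0531). Pgam1, which moves the phosphate of 3-phosphoglycerate, had 4038, 3782 and 3697 at day 3 and 3261, 3185 and 3156 at day 4. Its day 4 arrays were close together and below day 3, a fall of 0.26 ± 0.06 (adjusted p = 0.0123; -0.28 without day 4 replicate 1), and the call held in each fit that left out an array.

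Gapdh, which oxidises glyceraldehyde 3-phosphate and is often used as a reference gene, was read here only by controls placed along its transcript. A further 3 probe sets, shared with other symbols, were left unnamed. The 3′ control of Gapdh gave 7547, 7293 and 7258 at day 3 and 6791, 6978 and 6962 at day 4. The middle control gave 6149, 5415 and 5571 at day 3 and 2735, 4896 and 5119 at day 4. The 5′ control gave 3108, 2765 and 2750 at day 3 and 484, 2185 and 2648 at day 4. In each of these controls every day 4 array was below every day 3 array (p = 0.1 by an exact permutation test, 2-sided, which cannot go lower with 3 arrays a day). The log2 changes were -0.092, -0.48 and -1.03 from 3′ to 5′, and -0.080, -0.19 and -0.25 without day 4 replicate 1. The size of the difference thus depended on where the transcript was read, mostly through that 1 array.

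**Figure D2:**
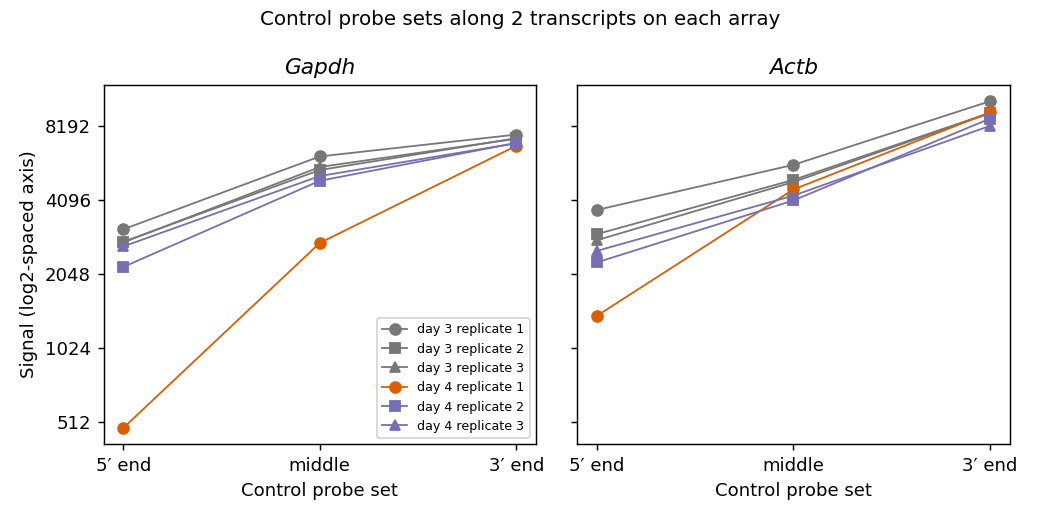
Signal (y axis, log2-spaced) of the control probe sets at the 5′ end, middle and 3′ end of Gapdh and Actb, with 1 line per array; grey, day 3; orange, day 4 replicate 1; purple, day 4 replicates 2 and 3. Day 4 replicate 1 drops to 484 at the 5′ end of Gapdh, where the other arrays lie between 2185 and 3108, and nearly meets them at the 3′ end.

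Pgk1, which makes ATP in the next step, was at 8682, 7852 and 8210 at day 3 and 6190, 8033 and 8053 at day 4. In this brightest probe set the groups overlapped apart from day 4 replicate 1, and the change of -0.16 did not pass (adjusted p = 0.266, and -0.035 without that array). The other probe sets of Pgk1 did not overlap between the days. Their means fell from 6052 to 5526 and from 6694 to 6202, with day 4 at 5589 and 6295 without replicate 1. These changes of -0.13 and -0.11 did not pass when every probe set was tested alone (adjusted p = 0.109 and 0.19). Of the enolases, Eno3, the muscle type, overlapped (161 to 208 at day 3 and 200 to 270 at day 4, adjusted p = 0.207). Eno2, the neuronal type, was dim, with 15.3, 20.7 and 13.0 at day 3 and 22.1, 37.5 and 35.8 at day 4. Its groups did not overlap, and its change of 0.95 ± 0.33 did not pass (adjusted p = 0.0665), but did without day 4 replicate 1 (1.19, adjusted p = 0.0233) and when arrays were weighted (1.17, adjusted p = 0.00861). The muscle markers Myod1, Myog, Ckm and Acta1, with 2 of 4 above the filter and Myog and Ckm under it, summed to 446 to 510 at day 3 and 178 to 213 at day 4. Only Acta1 of this list was called, as lower, and it made up most of the sum (394 to 450 at day 3 and 140 to 170 at day 4). A part of muscle cells in the changes of Pfkm or Eno3 was not tested.

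The last steps toward lactate were lower or unsettled. Pkm, pyruvate kinase, was at 4665, 4334 and 4102 at day 3 and 3138, 3601 and 3677 at day 4. The day 4 arrays were all lower, and the fall was 0.33 ± 0.08 (adjusted p = 0.0143; -0.26 and 0.0088 without day 4 replicate 1). It was lost without day 3 replicate 1 or 2 (adjusted p = 0.0572 and 0.0511). Ldha, the lactate dehydrogenase subunit that favours lactate formation, had 8135, 7576 and 7621 at day 3 and 5279, 7020 and 7177 at day 4. All day 4 arrays were lower, but the change of -0.27 ± 0.11 did not pass (adjusted p = 0.0924) and was -0.13 without day 4 replicate 1 (adjusted p = 0.0661). Ldhb, the other subunit, overlapped in its brightest probe set, with 2281, 2167 and 2284 at day 3 and 2347, 1958 and 1830 at day 4. Its change was -0.14 (adjusted p = 0.31), or -0.24 and called without day 4 replicate 1 (adjusted p = 0.0123). All 3 other probe sets of Ldhb also had negative changes that did not pass. Those with changes of -0.16 and -0.21 did not overlap between the days (adjusted p = 0.19 and 0.103 with every probe set tested alone).

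Of the lactate transporters, Slc16a3, the MCT4 exporter, had the steepest fall of any member. Its signal was 112, 92.3 and 93.5 at day 3 and 36.8, 67.0 and 61.4 at day 4. Day 4 replicate 1 was the lowest, and the others were also below day 3. The fall was 0.89 ± 0.23, or 1.86-fold (adjusted p = 0.0211; -0.63 and 0.013 without day 4 replicate 1), and the call was lost on omission of day 3 replicate 1, 2 or 3 (adjusted p = 0.0863, 0.0554 and 0.0605). Slc16a1, MCT1, had 3552, 3582 and 3594 at day 3 and 3654, 3115 and 3278 at day 4, a change of -0.098 that did not pass (adjusted p = 0.346), but did without day 4 replicate 1 (-0.16, adjusted p = 0.0381) and when arrays were weighted (-0.16, adjusted p = 0.0282).

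**Figure D3:**
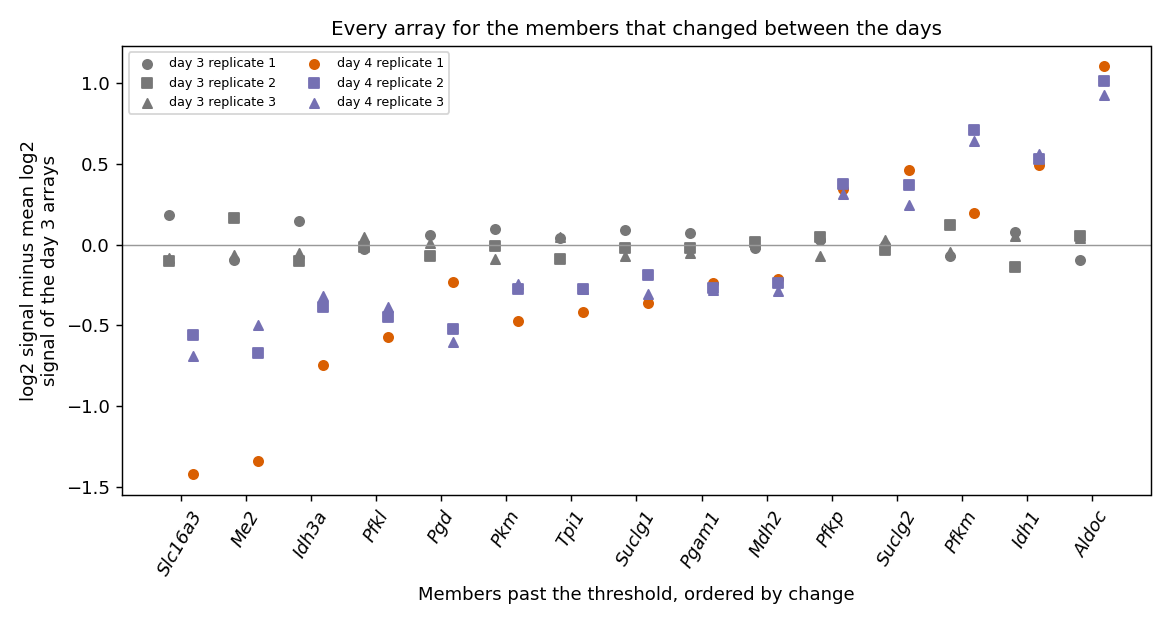
Signal of each array for the 15 members past the threshold, as log2 minus the mean log2 of the day 3 arrays (y axis), ordered by change. Grey symbols are day 3 arrays and coloured symbols day 4 arrays, with day 4 replicate 1 in orange. The days overlap in none of the 15, which were chosen by the test on these same arrays. Among all 12285 genes tested, 2531 had every day 4 array below day 3 and 2549 had every day 4 array above. The orange point is the lowest by a wide gap for Slc16a3, Me2 and Idh3a.

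Pyruvate dehydrogenase and TCA cycle genes changed in both directions. Of 19 tested members, 4 were lower (Idh3a, Suclg1, Mdh2 and Me2), 2 were higher (Idh1 and Suclg2) and 13 did not pass. These are shares of 21.1% lower and 10.5% higher, where all genes tested gave 10.7% and 11.5%. Genes with a mean signal over 1000 gave 15.2% lower and 13% higher. The median change of the TCA cycle members was -0.050, and 0.027 without day 4 replicate 1, when 4 were lower and 3 higher. The backgrounds were then 14.5% lower and 14.2% higher over all genes tested, and 20.7% and 19.3% over genes with a mean signal over 1000. Without the variance trend the counts were 0 lower and 1 higher (limma). The count of lower members was 2, 2 and 1 without day 3 replicates 1, 2 and 3, and that of higher members 1 without day 3 replicate 2.

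The isocitrate dehydrogenases moved apart. Idh1, the cytosolic enzyme that makes NADPH, was at 1763, 1516 and 1734 at day 3 and 2349, 2407 and 2457 at day 4. The days were clearly separated, and the signal rose by 0.53 ± 0.08, or 1.44-fold (adjusted p = 0.00144; 0.54 without day 4 replicate 1). Its other probe set rose as well, from 404 ± 9.45 to 612 ± 127, and Idh1 was the only member whose call held under every alternative that could be run. The fit without probe sets ending in _a_at, _s_at or _x_at gave no value for Idh1, whose probe sets all end in _s_at. Idh2, the mitochondrial NADPH-forming enzyme, was at 579, 505 and 509 at day 3 and 414, 977 and 955 at day 4. A pair of day 4 arrays lay well above day 3, while day 4 replicate 1 was the lowest of all. The change of 0.46 ± 0.28 did not pass (adjusted p = 0.272), and it was 0.87 ± 0.09 without that array (adjusted p = 5.73e-05). A dimmer probe set of Idh2 had 62.8, 69.4 and 57.8 at day 3 and 78.8, 82.6 and 81.6 at day 4. There the days did not overlap, and day 4 replicate 1 lay near the other day 4 arrays. Its change of 0.36 did not pass when every probe set was tested alone (adjusted p = 0.126).

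Idh3a, the catalytic subunit of the NAD-dependent enzyme of the cycle, was at 1960, 1650 and 1705 at day 3 and 1051, 1352 and 1416 at day 4. The groups did not overlap, and the fall was 0.48 ± 0.12 (adjusted p = 0.0176; -0.35 and 0.00764 without day 4 replicate 1). The call was lost without day 3 replicate 1 or 3 (adjusted p = 0.0745 and 0.0542) and when its 4 probe sets were averaged (adjusted p = 0.419), and the 3 others, all dimmer, had negative changes that did not pass. Its partner subunits did not pass: Idh3b had 1743 to 1805 at day 3 and 1604 to 2028 at day 4, and Idh3g 1324 to 1444 and 1485 to 1706. The change of Idh3b was 0.068 and that of Idh3g 0.20 (adjusted p = 0.642 and 0.109).

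Succinyl-CoA ligase pairs a common alpha subunit with a beta subunit that sets whether GTP or ATP is made. Suclg1, the alpha subunit, had 2241, 2069 and 1998 at day 3 and 1637, 1843 and 1700 at day 4. Every day 4 array was lower, a fall of 0.28 ± 0.08 (adjusted p = 0.0259; -0.25 and 0.0222 without day 4 replicate 1), with the call lost on omission of any day 3 array (adjusted p = 0.0852, 0.0745 and 0.0572 for replicates 1 to 3) or of day 4 replicate 3 (0.0708). Suclg2, the GTP-type beta subunit, had 990, 968 and 1010 at day 3 and 1366, 1280 and 1171 at day 4. Every day 4 array was higher, a rise of 0.36 ± 0.08 (adjusted p = 0.0124; 0.31 and 0.00792 without day 4 replicate 1), with an adjusted p of 0.0548 without day 3 replicate 2. Sucla2, the ATP-type beta subunit, overlapped, at 2681 to 2861 and 2857 to 3152 (change 0.079, adjusted p = 0.428).

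Mdh2, the mitochondrial malate dehydrogenase, had 5543, 5686 and 5655 at day 3 and 4853, 4778 and 4609 at day 4. In this brightest probe set the arrays of each day were tight and separated, and the signal fell by 0.25 ± 0.05, or 1.19-fold (adjusted p = 0.00822, and -0.26 without day 4 replicate 1). The other probe set of Mdh2, at 4121 ± 272 and 3466 ± 578 (mean ± SD), overlapped between the days. Its change of -0.26 did not pass when every probe set was tested alone (adjusted p = 0.135). The call of Mdh2 held in each fit that left out an array. Its cytosolic counterpart Mdh1 overlapped, with 4299, 5241 and 4707 at day 3 and 3746, 4615 and 5039 at day 4 (change -0.095, adjusted p = 0.58). Me2, the mitochondrial malic enzyme, which turns malate into pyruvate, had 241, 288 and 246 at day 3 and 102, 162 and 183 at day 4. All day 4 arrays were lower and replicate 1 the lowest, a fall of 0.84 ± 0.20 (adjusted p = 0.0165; -0.58 and 0.00433 without that array), lost without day 3 replicate 2 or 3 (adjusted p = 0.0707 and 0.0528).

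The entry into the cycle did not pass. Pdha1, the catalytic subunit of pyruvate dehydrogenase, was at 2243, 2014 and 2014 at day 3 and 1831, 1941 and 1889 at day 4, all lower at day 4 without passing (-0.15 ± 0.07, adjusted p = 0.174). The subunits Pdhb and Dlat changed by -0.21 and -0.20 (adjusted p = 0.0856 and 0.152), also with no overlap between days. Dimmer probe sets of Pdha1 and Dlat, at 495 ± 26.3 and 332 ± 51.3 and at 347 ± 52.2 and 230 ± 16.7, were called lower on their own (adjusted p = 0.0127 and 0.0156). Cs, citrate synthase, was at 2279, 2241 and 2070 at day 3 and 2673, 2403 and 2447 at day 4. The days did not overlap, yet the change of 0.19 ± 0.07 did not pass (adjusted p = 0.0868), and a dimmer probe set of the gene had a change of -0.29 (adjusted p = 0.063).

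Ogdh, the first subunit of the 2-oxoglutarate dehydrogenase complex, was at 253, 265 and 284 at day 3 and 256, 244 and 275 at day 4. The groups overlapped, and the change of -0.050 had a 95% confidence interval of -0.29 to 0.19. Dlst, the next subunit of that complex, did not pass with its brightest probe set (-0.10, adjusted p = 0.617), while a dimmer one rose from 104 ± 13.9 to 159 ± 11.7 (adjusted p = 0.0184 with every probe set tested alone). Fumarase (Fh1) and the cytosolic aconitase Aco1, which is also an iron sensor, had changes of 0.090 and 0.11 (adjusted p = 0.309 and 0.48).

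In the pentose phosphate pathway, Pgd alone passed of 5 tested members, with 0 higher at day 4. All genes tested gave 10.7% lower and 11.5% higher, and genes with a mean signal over 1000 gave 15.2% and 13%. The median change of the 5 members was -0.0040, and without day 4 replicate 1 Taldo1 was lower as well, with a median of -0.081. Without the variance trend 0 passed by limma, and the adjusted p of Pgd was 0.0564. Pgd, 6-phosphogluconate dehydrogenase of the NADPH-forming branch, had 3634, 3331 and 3517 at day 3 and 2980, 2425 and 2293 at day 4. The days did not overlap, and the fall was 0.45 ± 0.10, or 1.37-fold (adjusted p = 0.00896). It was larger without day 4 replicate 1, whose signal was the highest of day 4 (-0.57 ± 0.06, adjusted p = 8.39e-05). All 4 of its probe sets were called lower when tested alone. Taldo1, transaldolase, had 1792, 1601 and 1789 at day 3 and 1628, 1324 and 1537 at day 4, a change of -0.21 that did not pass (adjusted p = 0.136), but did without day 4 replicate 1 (-0.27, adjusted p = 0.0284) and in the weighted fit (-0.29, adjusted p = 0.0141).

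Tkt, transketolase, which with transaldolase links the pathway back to glycolysis, had 6665, 6745 and 6817 at day 3 and 7555, 7142 and 7057 at day 4. Every day 4 array was higher, but the change of 0.10 ± 0.05 did not pass (adjusted p = 0.161; 95% confidence interval -0.0065 to 0.22). Pgls, the lactonase before Pgd, had signals of 176 to 225 at day 3 and 193 to 253 at day 4, and Rpia, ribose-5-phosphate isomerase, 153 to 162 and 143 to 167. Their changes were 0.046 and -0.0040 (adjusted p = 0.858 and 0.985), and the 95% confidence interval of Rpia ran from -0.27 to 0.26.

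**Figure D4:**
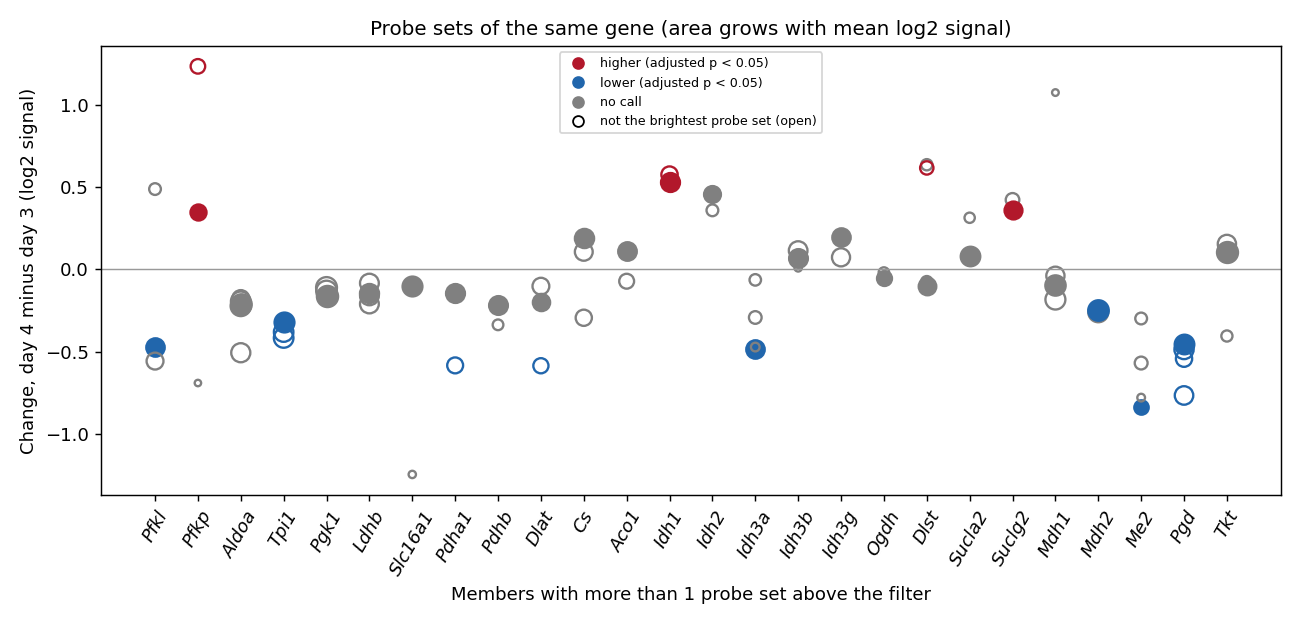
Change from day 3 to day 4 (y axis, log2 signal) of each probe set above the filter, for the 26 members with more than 1; filled circles are the brightest probe set of the gene, open circles the others, red and blue those with adjusted p under 0.05 when every probe set was tested alone, and the area grows with mean log2 signal. Probe sets of Tpi1 and Pgd lie together below zero, those of Pfkl and Pfkp on both sides of it.

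Of 89 member probe sets above the filter, 8 were called higher and 17 lower when each was tested alone, against a background of 18.2% called in either direction over 22276 probe sets. In 0 of the 26 members with more than 1 such probe set were calls made in both directions.

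Neighbouring genes of the same pathways were taken from lists of the remaining enzymes, regulators and transporters. Their counts are read against the same 10.7% lower and 11.5% higher of all genes tested, or 14.5% and 14.2% without day 4 replicate 1. All of the neighbours named here were called in the same direction without day 4 replicate 1. In glycolysis and glucose uptake, 3 of 15 tested were lower (20%) and 1 higher, also without day 4 replicate 1, and the median change was -0.11. Slc2a1, the GLUT1 glucose transporter, had 3211, 3540 and 3282 at day 3 and 1904, 2049 and 1928 at day 4, a fall of 0.77 ± 0.07 (adjusted p = 0.000105). Hk2, a hexokinase that traps glucose in the cell, had 938, 1124 and 1105 at day 3 and 399, 601 and 482 at day 4, a fall of 1.11 ± 0.15 (adjusted p = 0.000832). The days were far apart for both genes. Tigar, a phosphatase that lowers glycolytic flux, fell from 194 ± 23.6 to 103 ± 25.8 (adjusted p = 0.0085), and Pfkfb2, a relative of Pfkfb3, rose from 42.4 ± 8.40 to 66.8 ± 7.83 (adjusted p = 0.0392; mean ± SD, n = 3, limma).

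Around the TCA cycle, 3 of 18 were lower (16.7%) and 1 higher, or 4 and 2 without day 4 replicate 1, with a median change of -0.039. Mpc1, a subunit of the carrier that brings pyruvate into mitochondria, had 112, 105 and 116 at day 3 and 49.8, 41.3 and 55.0 at day 4. The groups were widely separated, with a fall of 1.19 ± 0.16 (adjusted p = 0.000902). Glud1, glutamate dehydrogenase, which feeds 2-oxoglutarate into the cycle, fell from 1639 ± 142 to 1120 ± 38.2 (adjusted p = 0.00198). Me1, the cytosolic malic enzyme, fell by 0.50 ± 0.15 (adjusted p = 0.0379), and Sdhc, a membrane subunit of succinate dehydrogenase, rose by 0.61 ± 0.19 (adjusted p = 0.0467, and 0.36 without day 4 replicate 1, which was its highest array). Of 4 tested neighbours of the pentose phosphate pathway, 2 were lower and 0 higher by limma, with a median change of -0.15. They were Prps1, which makes phosphoribosyl pyrophosphate (1015 ± 42.3 to 607 ± 98.4, adjusted p = 0.00233), and Rpe, ribulose phosphate epimerase (354 ± 19.0 to 268 ± 25.9, adjusted p = 0.0265).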

How the data were processed

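Array signals of 45101 probe sets were deposited by the authors as linear MAS5 intensities, per the submitters' processing notes. Its version, its scaling target and present or absent calls were not stated in the labels. Per the labels' protocols, RNA was amplified by a double protocol before labelling. Trimmed means of the 6 arrays ran from 160.4 to 162.1, and no further scaling was applied. Array signals carry no read depth, so precision is limited by the number of arrays.

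Genes were named from the annotation of the platform. Each was represented by its brightest probe set (mean log2 over the 6 arrays), and tested where this exceeded a signal of 13.5, the 40th percentile of the array. Probe sets with several symbols (932, among them 3 for Gapdh) or none listed (9211) were left unnamed, and 64 control probe sets were used for quality only. Day was the single covariate of the fit, made with limma 3.58.1 in R 4.3.3 (eBayes with trend, Benjamini-Hochberg adjustment over 12285 genes). The fit was tested on simulated arrays. The rule for named genes was every member, with all arrays printed for called members, Gapdh, the enzymes of key steps and partners of called isoenzymes, and up to 4 called neighbours per list. The members and lists were chosen with earlier results of these data known. Same-numbered replicates of the days did not deviate together, so no pairing was used.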

Additional observations from a re-analysis of the deposited data

How the results depend on the processing

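Counts of calls (lower, higher) in the 3 pathways stayed within 1.5 times with an offset before log2, quantile normalization, median centring, no filter on signal, a stricter one (60th percentile) and every probe set tested alone, where 2410 to 2768 genes were called against 2729. With the replicate block 2884 genes were called and no pathway count moved. The mean over probe sets called 1796 genes and 1 higher glycolysis member. Array weights called 4312 genes, 5 higher TCA cycle members and 2 lower pentose phosphate members. Without any probe set ending in _a_at, _s_at or _x_at, 2 glycolysis, 2 TCA cycle and 0 pentose phosphate members were lower. In that setting 0 TCA cycle members were higher, and 13 members had no value. Pfkl, left with its dim probe set, was reversed at 0.49 (adjusted p = 0.0422). The suffix _a_at marks transcripts of the same gene, so this setting does not single out cross-hybridisation. Without the variance trend, 1, 0 and 0 members of these pathways were lower and 1 TCA cycle member higher. Leaving out each array in turn gave 1582 to 3530 genes, 3 to 7 lower and 1 to 4 higher glycolysis members, 1 to 4 lower and 1 to 3 higher TCA cycle members and 1 to 2 lower pentose phosphate members. Of the 15 called members, 1 kept its call in every setting run and 6 in all 6 leave-outs, and 9 others gained a call in at least 1 setting, 7 of them with array weights. Leaving out each array was planned; giving the values without day 4 replicate 1 beside the pathway counts and called members was chosen after the data were seen. With 3 arrays a day, changes near 0.1 to 0.3 sit close to the threshold.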
